A study of Mus musculus with 12 samples.

Results

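The Fgf receptor, Sprouty and Met genes examined here are 10 genes of 2 receptor tyrosine kinase pathways that act on muscle stem cells (MuSCs). They are defined by a list of gene symbols: the ligands Fgf2 and Hgf, the receptors Fgfr1, Fgfr4 and Met, the inhibitors Spry1, Spry2 and Spry4, and the related inhibitors Spred1 and Spred2. The study sequenced 12 libraries of 1000 cells each in 2 tables that share no library. In the first, 3 libraries of fresh, sorted WT MuSCs were set against 3 of WT myoblasts after 3 days in culture, which asks what changes as MuSCs leave the muscle and are cultured. In the second, fresh MuSCs of 3 WT mice were set against fresh MuSCs of 3 Nedd4L-cKO mice. This asks how these cells differ in mice where the ubiquitin ligase Nedd4L is deleted. All 10 genes were among the 16169 listed in the genotype table, and 9 of them, all but Hgf, were among the 16503 listed in the MuSC and myoblast table. Every listed member passed the filter on low values.

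The Nedd4L-cKO mice carried Nedd4L fl/fl with Pax7 cre/+ on a C57BL/6 background, so that cells expressing the satellite cell factor Pax7 lose exon 15 of Nedd4l. The paper states that myofibers lose Nedd4L as well and that this could alter what they signal to MuSCs. Effects of the loss in MuSCs and in myofibers cannot be told apart here. The animals of the genotype comparison were male and 5 to 6 weeks old. The controls are labelled WT, and whether they carried Cre or loxP sites is not given in the sources used here. MuSCs came from hindlimb muscle and were sorted as cells positive for integrin alpha 7 and negative for endothelial, blood and SCA1 surface proteins. The myoblasts grew on collagen in Ham's F10 medium with fetal bovine serum and with 5 ng/mL of basic FGF, the protein that Fgf2 encodes. An Fgf ligand was therefore present in culture. Handling differed as well. Fresh MuSCs were digested from muscle with collagenase and dispase and sorted straight into lysis buffer. Myoblasts were lifted with trypsin after culture, pelleted and counted. Culture, time, the added ligand and this handling cannot be told apart.

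Fgf receptors are surface kinases that bind Fgf together with heparan sulfate chains and pass the signal through adaptor proteins to RAS and the kinase ERK. Sprouty and Spred proteins, several of them induced by this pathway, act back on it and restrain ERK. In adult muscle, Fgf2 drives satellite cell division, Spry1 is known for holding satellite cells in quiescence, and Hgf acting on Met is known for waking them.

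Expression is given as RPM, the deposited normalized counts scaled by the mean total of the 6 libraries of a table, and levels of different genes are compared only as RPM per kb of the Ensembl canonical transcript. Fold changes are log2 differences on log2(RPM + 1) from limma with their standard error (SE), and a gene was called at a Benjamini-Hochberg adjusted p of at most 0.05 over all tested genes. In bulk libraries, fewer cells of a type and less RNA per cell cannot be told apart. Normalized counts summed to between 33189802 and 50687122 per library, and the read depth behind them is unknown. Pax7 lay between 151 and 302 RPM in the 9 libraries of WT and Nedd4L-cKO MuSCs and between 17.8 and 21.2 RPM in the 3 myoblast libraries. The myoblast libraries also held 9641 to 26640 RPM of 10 myofiber genes, against 365 to 563 RPM in the MuSC libraries. Myog, a differentiation factor, averaged 659 RPM in MuSCs and 3747 RPM in myoblasts. Of the division genes, Mki67 averaged 92.0 and 71.9 RPM and Top2a 95.3 and 146 RPM, with overlapping groups in each. A list of 12 genes of fibro-adipogenic progenitors and fibroblasts also moved with culture, from 3139 to 3748 RPM in sum in MuSCs to 272 to 382 RPM in myoblasts, with Col3a1 and Gsn the most abundant in both and Dpt listed at 0 in myoblasts. Of the same list, Pdgfra, which defines these progenitors, was at most 2.83 RPM in all 12 libraries. In the genotype libraries Dcn lay between 193 and 2208 RPM and Col1a2 between 84.2 and 780 RPM, whereas Ly6a was at most 2.69 RPM. The part of either list in the results below was not tested. Of 12 MuSC marker genes, Pax7 included, 2 were called lower in Nedd4L-cKO and none higher, against 0.261% and 0.523% of all tested genes. Groups did not overlap for 4 lower markers, against 9.59% of all tested genes on that side. Chrdl2 averaged 270 RPM in WT and 48.4 RPM in Nedd4L-cKO, Cd34 286 and 93.3, Heyl 303 and 157, and Calcr 275 and 151. Vcam1 was higher without overlap, at 511 and 723 RPM. The part of this shift in the members was not tested. The targeted gene Nedd4l was at 70.2, 96.4 and 66.7 RPM in WT cells, against 30.2, 36.3 and 22.5 RPM in Nedd4L-cKO cells, and reads of exon 15 alone are not separable in these values.

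On GRCm39, the members lie at chr8:26003670-26066824 (Fgfr1, ENSMUSG00000031565), chr13:55300352-55316572 (Fgfr4, ENSMUSG00000005320), chr6:17463749-17573979 (Met, ENSMUSG00000009376), chr3:37402473-37464257 (Fgf2, ENSMUSG00000037225) and chr5:16758041-16828178 (Hgf, ENSMUSG00000028864). The inhibitors lie at chr3:37693897-37698755 (Spry1, ENSMUSG00000037211), chr14:106128766-106136446 (Spry2, ENSMUSG00000022114), chr18:38719300-38736025 (Spry4, ENSMUSG00000024427), chr2:116951524-117018277 (Spred1, ENSMUSG00000027351) and chr11:19874355-19974442 (Spred2, ENSMUSG00000045671). All 10 are annotated as protein-coding genes.

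Seen per kb, the WT MuSCs of both tables had Spry1 at the top of the family. Spry1 stood at 155 ± 7.52 RPM per kb (SD, n = 3) in the MuSCs of the first table, higher than 95.9% of the tested genes. Fgfr4 followed at 84.8 ± 37.0 RPM per kb and Fgfr1 at 72.0 ± 26.7 RPM per kb, and the ranges of these 2 receptors overlapped. Spry4 and Spry2 came next at 29.7 ± 6.09 and 17.5 ± 9.58 RPM per kb, again with overlapping ranges. The remaining members were low: Spred1 at 5.78 ± 0.994, Met at 4.05 ± 1.25, Spred2 at 0.917 ± 0.191 and Fgf2 at 0.598 ± 0.0575 RPM per kb. The WT MuSCs of the genotype table, which were normalized apart, had Spry1 first as well at 91.8 ± 29.1 RPM per kb, then Fgfr1 at 64.6 ± 12.1 and Fgfr4 at 57.0 ± 10.6 RPM per kb. In Nedd4L-cKO MuSCs the first 4 were Spry2 at 44.0 ± 36.3, Spry1 at 32.7 ± 18.9, Fgfr4 at 28.2 ± 12.6 and Fgfr1 at 25.6 ± 10.3 RPM per kb, each overlapping the next. With the union of all exons as the length in place of the canonical transcript, Fgfr1 took 42.0% rather than 53.1% of the summed level of the 2 receptors in these WT MuSCs and Fgfr4 became the higher of the pair. In the MuSCs of the first table Fgfr4 was the higher with either length, at 64.4% or 53.7%. With the union length, Fgfr4 at 95.6 RPM per kb also stood above Spry1 at 92.4 RPM per kb in MuSC replicate 04. Spry1 was above Fgfr4 with that length in replicates 05 and 06 and in each WT library of the genotype table.

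**Figure D1:**
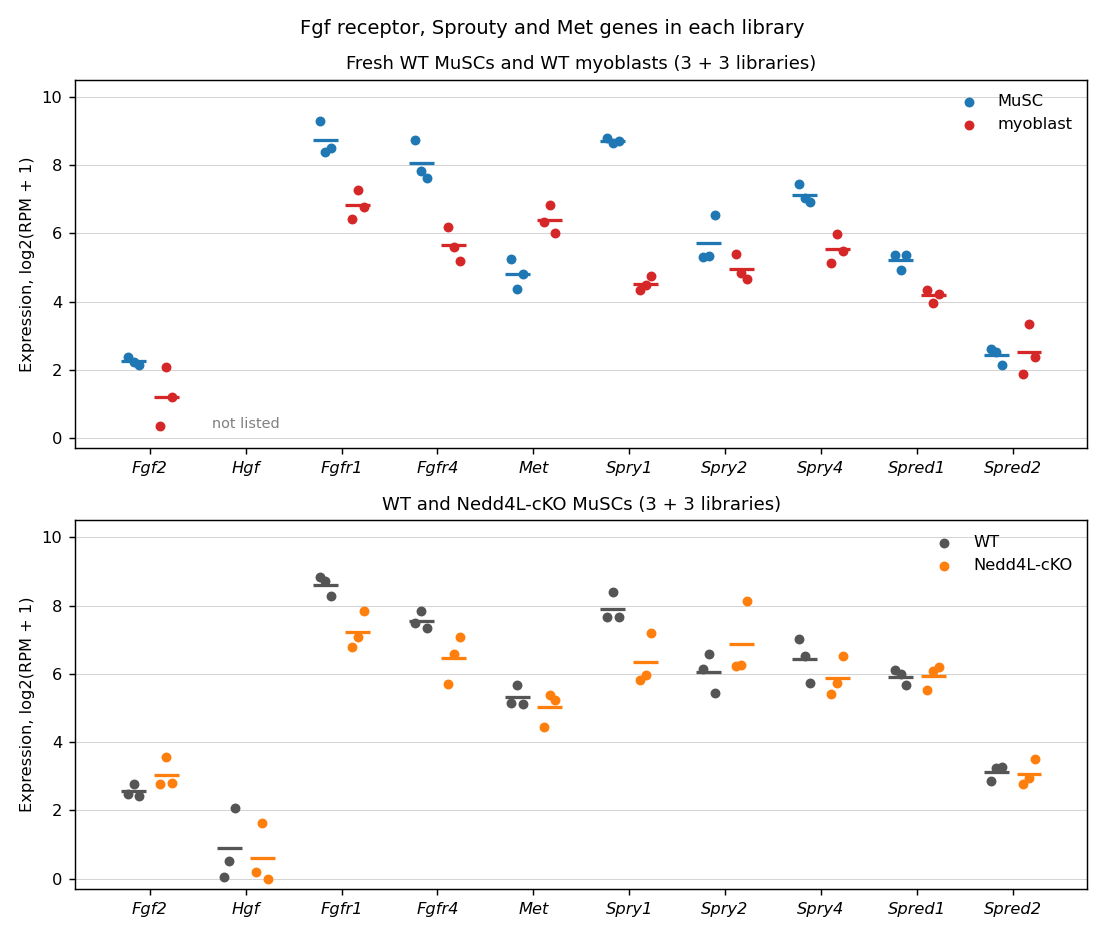
Expression of the 10 genes as log2(RPM + 1) on the vertical axis in each library, with 1 point per library and a line at the mean of the 3 libraries of a group. Myoblasts sit below MuSCs without overlap for Fgfr1, Fgfr4, Spry1, Spry4, Spred1 and Fgf2 and above them for Met, and Nedd4L-cKO libraries sit below WT without overlap for Fgfr1, Fgfr4 and Spry1.

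In cultured myoblasts, 6 of the 9 members tested changed, 5 of them downward. Spry1 fell 19.0-fold, Fgfr4 5.48-fold, Fgfr1 3.85-fold, Spry4 3.05-fold and Spred1 2.13-fold in mean RPM, and Met rose 3.07-fold. Across the whole table, culture changed 42.8% of the 15345 tested genes, 22.2% upward and 20.6% downward, so a single call says little and the 5 of 9 called lower are to be read against 20.6%. Groups without overlap on the lower side numbered 6 of 9 members, against 26.8% of all tested genes. The median log2 fold change was -1.04 over the 9 members and 0.039 over all tested genes.

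Spry1, the inhibitor that led the family in fresh cells, had the largest change of the 9. It was at 441, 401 and 416 RPM in fresh MuSCs, against 19.0, 21.2 and 26.0 RPM in myoblasts. The 3 fresh libraries were close to each other, the 3 cultured ones also, and the lowest fresh value was far above the highest cultured one. It fell by 4.20 on the log2 scale (SE 0.19, limma adjusted p = 1.59e-06) and ranked 38 by p among all tested genes. Spry4, a further Sprouty, was at 174, 130 and 120 RPM in MuSCs and at 34.1, 61.6 and 43.5 RPM in myoblasts. Its groups did not overlap, and it fell by 1.61 on the log2 scale (SE 0.26, limma adjusted p = 0.00138). Spry2 did not pass. It was at 38.6, 39.2 and 92.7 RPM in MuSCs and at 40.8, 27.6 and 24.1 RPM in myoblasts. A single fresh library was high, and the other fresh values lay within the cultured range. The log2 difference of -0.77 had an interval from -1.61 to 0.067 (limma adjusted p = 0.123), which spans no change and at its lower end comes close to Spry4's fall.

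The promoters of Spry1 and Spry2 are shown because these genes of the same family had such different changes. They are the 250 bases before the RefSeq start on GRCm38.p6, read 5′ to 3′ on the gene's strand, Spry1 at chr3:37639697-37639946 on the plus strand and Spry2 at chr14:105896820-105897069 on the minus strand. The motifs searched, on both strands, were the E-box CAGCTG, the Ets site GGAAGT, the TEAD site GGAATG and the GC box GGGCGG, none overlapping another in these sequences. Capitals mark the hits.

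Spry1: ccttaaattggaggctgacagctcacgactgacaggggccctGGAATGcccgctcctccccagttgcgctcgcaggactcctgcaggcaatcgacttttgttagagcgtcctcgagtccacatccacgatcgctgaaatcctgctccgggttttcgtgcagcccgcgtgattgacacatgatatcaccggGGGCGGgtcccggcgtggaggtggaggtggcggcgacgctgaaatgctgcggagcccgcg

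Spry2: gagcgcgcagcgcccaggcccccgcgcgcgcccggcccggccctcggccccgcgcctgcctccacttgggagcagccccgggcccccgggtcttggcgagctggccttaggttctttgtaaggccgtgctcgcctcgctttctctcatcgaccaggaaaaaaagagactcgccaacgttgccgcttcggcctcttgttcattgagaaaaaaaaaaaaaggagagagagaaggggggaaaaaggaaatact

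Spry1 held a single TEAD motif and a single GC box, which 12.6% and 32.7% of 32851 RefSeq promoters of this length also hold, and Spry2 held none of the searched motifs. An E-box stood in 13% of all promoters and an Ets site in 19.7%. A match of letters is a description and not a site in use.

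The unequal changes altered the make-up of the Sprouty transcripts. Per kb, Spry1 was 77.1%, 79.0% and 74.1% of the summed Spry1, Spry2 and Spry4 level in the MuSC libraries and 26.3%, 26.8% and 36.7% in the myoblast libraries. Spry1 was over 74% of the Sprouty level in each of these fresh libraries and at most 36.7% in the cultured ones. It was still the most abundant in myoblast replicate 06 with this length. With the union of all exons as the length, Spry4 led in that library at 39.4%, against 32.5% for Spry1. Spry2 and Spry4 made up a mean of 34.8% and 35.3% in myoblasts. The Spry1 to Spry2 ratio fell by 3.46 on the log2 scale, without overlap between groups, and an exact two-sided permutation test gave p = 0.1, the smallest that 3 libraries against 3 allow (0.2 adjusted over the 10 ratios computed). The Spry1 to Spry4 ratio was lower by 2.62 on the same scale, with the same exact p = 0.1.

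**Figure D2:**
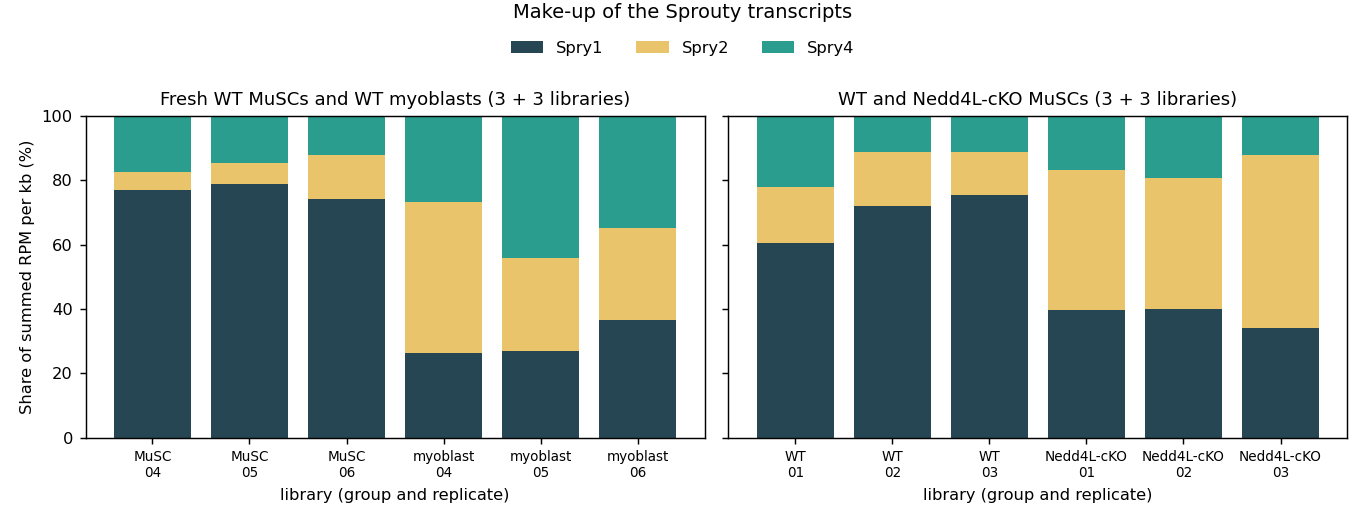
Share of Spry1, Spry2 and Spry4 in their summed RPM per kb, as stacked bars that add to 100% in each of the 12 libraries. Spry1 takes 74.1% to 79.0% in fresh MuSCs and 26.3% to 36.7% in myoblasts, and 60.6% to 75.5% in WT against 34.1% to 40.0% in Nedd4L-cKO MuSCs.

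The Spred genes encode membrane-bound relatives of Sprouty that bind neurofibromin, a brake on RAS. Spred1 was at 39.9, 29.4 and 40.6 RPM in MuSCs and at 19.2, 14.6 and 17.7 RPM in myoblasts. Every cultured value lay below every fresh value, and Spred1 fell by 1.04 (log2, SE 0.25, limma adjusted p = 0.0101). Spred2 was at 5.09, 4.76 and 3.36 RPM in MuSCs and at 2.64, 9.19 and 4.14 RPM in myoblasts. Its groups overlapped, and its log2 difference of 0.10 had an interval from -0.85 to 1.06 (limma adjusted p = 0.861).

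Both Fgf receptors among the members fell in culture. Fgfr3, not a member, was at 0.544, 0.684 and 2.34 RPM in MuSCs and higher at 7.86, 5.67 and 6.48 RPM in myoblasts. The groups of Fgfr2 overlapped. Fgfr1, the receptor through which Fgf2 acts on satellite cells, was at 631, 336 and 360 RPM in MuSCs and at 85.2, 152 and 108 RPM in myoblasts. Replicate 04 was the highest fresh library and the lowest cultured one, and the groups were well apart. Fgfr1 fell by 1.91 (log2, SE 0.30, limma adjusted p = 0.00104). Fgfr4, the receptor known for its expression in the muscle lineage, was at 423, 226 and 197 RPM in MuSCs and at 71.3, 47.8 and 35.3 RPM in myoblasts. The groups did not overlap. Fgfr4 fell by 2.40 (log2, SE 0.34, limma adjusted p = 0.000645). The Fgfr1 to Fgfr4 ratio differed by 0.50 on the log2 scale, with overlapping groups and an exact permutation p = 0.4.

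Met, the receptor of Hgf, went the other way. It was at 36.6, 19.6 and 27.1 RPM in MuSCs and at 79.6, 113 and 62.8 RPM in myoblasts. Each cultured library was above each fresh one, and Met rose by 1.59 (log2, SE 0.30, limma adjusted p = 0.00313). With Fgfr1 falling and Met rising, the level of Met per kb went from 0.0569 to 0.663 of the level of Fgfr1 in the geometric mean of the libraries. This ratio changed by 3.54 on the log2 scale without overlap (exact permutation p = 0.1, the smallest possible, and 0.2 adjusted over 10 ratios).

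The promoters of Fgfr4 and Met are shown because these receptors changed in opposite directions, from the same RefSeq build and with the same motifs in capitals, Fgfr4 at chr13:55152568-55152817 and Met at chr6:17463707-17463956, both on the plus strand.

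Fgfr4: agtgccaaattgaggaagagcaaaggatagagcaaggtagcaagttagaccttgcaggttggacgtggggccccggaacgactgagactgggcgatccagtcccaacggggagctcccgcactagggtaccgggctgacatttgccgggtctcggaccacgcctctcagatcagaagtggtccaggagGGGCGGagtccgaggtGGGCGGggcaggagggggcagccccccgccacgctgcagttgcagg

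Met: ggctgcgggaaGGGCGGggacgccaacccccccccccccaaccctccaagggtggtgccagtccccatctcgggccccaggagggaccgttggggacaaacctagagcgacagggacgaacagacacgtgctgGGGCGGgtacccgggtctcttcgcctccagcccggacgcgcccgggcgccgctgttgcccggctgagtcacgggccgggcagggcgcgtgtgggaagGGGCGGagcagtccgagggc

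Fgfr4 held 2 GC boxes and Met 3, and neither held the E-box, Ets or TEAD letters in this window. The promoter of Fgfr1 is not shown.

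Of the ligands, Fgf2 is the classical mitogen of satellite cells. Its own transcript was scarce, at 4.15, 3.67 and 3.44 RPM in MuSCs and at 0.275, 3.26 and 1.29 RPM in myoblasts. The groups did not overlap, but replicate 05 of the myoblasts came close to the fresh values. The log2 difference of -1.04 (interval -2.02 to -0.049) missed the threshold (limma adjusted p = 0.0838). It passed without myoblast replicate 05 (-1.47, limma adjusted p = 0.0206). The exons of Fgf2 share 3073 bases, 44.9% of their length, with Nudt6 on the opposite strand. The libraries did not mark strand, so reads of the pair cannot be told apart there, and Nudt6 itself was at 28 RPM in MuSCs and 8.69 RPM in myoblasts on average.

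In Nedd4L-cKO MuSCs, no member passed the threshold of limma, against 0.784% of the 15304 genes tested (0.523% higher and 0.261% lower). Of those, 80 were higher and 40 lower, or 56 and 44 when each library was scaled to its own total. At an unadjusted p under 0.05, 3 of the 10 members were lower and none was higher, namely Fgfr1, Fgfr4 and Spry1, and 7.13% of all tested genes were lower at that level. The same 3 members were those whose groups did not overlap, against 9.59% of all tested genes on the lower side. Their mean RPM was 2.52-fold, 2.02-fold and 2.81-fold lower. The median log2 difference was -0.29 over the 10 members and 0.0015 over all tested genes.

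Fgfr1 was at 457, 420 and 313 RPM in WT, against 109, 133 and 229 RPM in Nedd4L-cKO. All WT values were above all Nedd4L-cKO values, and Nedd4L-cKO replicate 03 lay nearest to WT. The log2 difference was -1.38 (SE 0.30, interval -2.04 to -0.72, unadjusted p = 0.000666, limma adjusted p = 0.0638). Over 16 alternative settings its adjusted p in limma ranged from 0.0191 to 0.206. Fgfr4 was at 178, 229 and 162 RPM in WT and at 50.9, 95.1 and 135 RPM in Nedd4L-cKO. Here too replicate 03 was the highest of the Nedd4L-cKO libraries. The log2 difference was -1.10 (SE 0.34, limma adjusted p = 0.169), and it passed in no alternative.

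Spry1 was at 203, 338 and 201 RPM in WT and at 56.2, 61.5 and 147 RPM in Nedd4L-cKO. The groups did not overlap, and Nedd4L-cKO replicate 03 again stood above the other two. The log2 difference was -1.58 (SE 0.37, interval -2.38 to -0.77, unadjusted p = 0.0011, limma adjusted p = 0.0772, from 0.0145 to 0.269 over the alternatives). Without Nedd4L-cKO replicate 03, both Fgfr1 (-1.69, limma adjusted p = 0.0191) and Spry1 (-2.01, limma adjusted p = 0.0145) were called. In that library 12 MuSC marker genes summed to 6755 RPM, against 3090 and 3833 RPM in the other Nedd4L-cKO libraries and 6397, 8177 and 4405 RPM in WT. Most of the excess was Sdc4, at 4158 RPM against 1045 and 1618 RPM, and Myf5, at 889 RPM against 332 and 410 RPM. Itga7 (140 RPM against 108 and 96.8) and Cdh15 (154 RPM against 98.3 and 142) were also highest in replicate 03. So were Heyl (181 RPM against 128 and 163) and Chrdl2 (56.4 RPM against 36.3 and 52.4). Pax7, Calcr and Musk lay between the other Nedd4L-cKO libraries, and Cd34, Vcam1 and Hey1 were the lowest of the 3. None of the 12 markers was at 0 in any of these libraries. The part of this spread in the values of Fgfr1, Fgfr4 and Spry1 was not tested.

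Spry2 had the opposite sign, with wide spread. It was at 70.2, 95.1 and 42.9 RPM in WT and at 74.0, 75.4 and 278 RPM in Nedd4L-cKO. The high mean of the Nedd4L-cKO group came from replicate 03, and the other values lay within the WT range. The log2 difference was 0.81 (interval -0.24 to 1.85, limma adjusted p = 0.466). Spry4 was at 130, 92.1 and 52.3 RPM in WT and at 41.8, 52.0 and 91.9 RPM in Nedd4L-cKO. These groups overlapped over most of their range, and the log2 difference was -0.54 (interval -1.35 to 0.27, limma adjusted p = 0.541).

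The shares of Spry1 and Spry2 among Sprouty transcripts varied less within a group than their levels did. Spry1 was 60.6%, 72.0% and 75.5% of the summed Sprouty level per kb in WT, against 39.7%, 40.0% and 34.1% in Nedd4L-cKO. Spry2 was 15.9% ± 2.19 of it in WT and 46% ± 6.82 in Nedd4L-cKO (SD, n = 3). Replicate 03 of the Nedd4L-cKO, apart from the others in each level, had the lowest Spry1 share and the highest Spry2 share of its group. Its Spry2 share was 53.8%, against 43.5% and 40.8% in replicates 01 and 02. The Spry1 to Spry2 ratio was lower by 2.40 on the log2 scale, with no Nedd4L-cKO library reaching the lowest of WT (exact permutation p = 0.1, the smallest possible, and 0.2 adjusted over the 10 ratios). The Spry1 to Spry4 ratio was lower by 1.04, with overlapping groups (exact permutation p = 0.2).

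Spred1 was at 67.7, 62.4 and 49.8 RPM in WT and at 45.4, 66.8 and 72.6 RPM in Nedd4L-cKO. Spred2 was at 6.32, 8.5 and 8.64 RPM in WT and at 5.88, 6.79 and 10.3 RPM in Nedd4L-cKO. Neither set of groups separated. The log2 differences were 0.022 for Spred1 (interval -0.57 to 0.61) and -0.050 for Spred2 (interval -0.79 to 0.69), which leaves room for changes of up to those bounds.

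Met was at 34.4, 49.9 and 33.7 RPM in WT and at 20.7, 40.8 and 36.5 RPM in Nedd4L-cKO. The ranges overlapped, and its log2 difference was -0.29 (interval -0.97 to 0.39, limma adjusted p = 0.708). Relative to Fgfr1, Met was higher in every Nedd4L-cKO library than in any WT library, by 1.09 on the log2 scale (exact permutation p = 0.1, the smallest possible). Per kb, Met stood at 0.0886 of Fgfr1 in WT and at 0.188 in Nedd4L-cKO.

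Fgf2 was at 4.59, 5.90 and 4.35 RPM in WT and at 5.79, 10.7 and 6.03 RPM in Nedd4L-cKO. A single WT library lay above the lowest Nedd4L-cKO library, and the log2 difference was 0.48 (interval -0.30 to 1.26, limma adjusted p = 0.575). The limit set by Nudt6 holds here too. Hgf, the secreted ligand of Met that stromal cells are known to make, was barely detected. It was at 0.0431, 0.441 and 3.24 RPM in WT, and at 0.145 and 2.10 RPM in Nedd4L-cKO with the third library listed at 0. In both groups a single library carried most of the signal, and the log2 difference was -0.28 (interval -1.42 to 0.86, limma adjusted p = 0.843). The WT library with 3.24 RPM of Hgf also held 39.9 RPM of 6 immune cell genes in sum, 33.6 of it from Lyz2, against 2.97 to 10.4 RPM in the other 5 libraries. Whether these belong together was not tested.

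**Figure D3:**
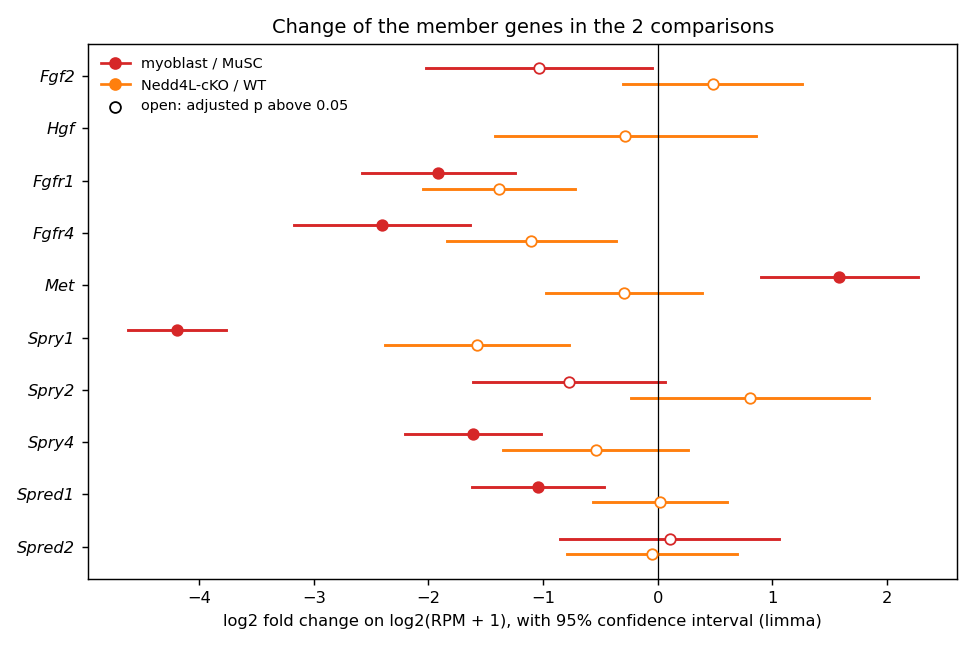
Log2 fold change on log2(RPM + 1) on the horizontal axis with its 95% confidence interval from limma, for myoblasts against MuSCs in red and Nedd4L-cKO against WT MuSCs in orange. Filled circles have an adjusted p of at most 0.05, and these are Fgfr1, Fgfr4, Spry1, Spry4 and Spred1 below 0 and Met above 0 in myoblasts, and none in Nedd4L-cKO.

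Set side by side, the 2 comparisons had Fgfr1 at -1.91 and -1.38, Fgfr4 at -2.40 and -1.10 and Spry1 at -4.20 and -1.58 (log2, culture and then genotype). Met was at 1.59 and -0.29, and Fgf2 at -1.04 and 0.48. The comparisons have no library in common, and the difference between them was not tested.

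The wider pathway was read from lists of genes written by role, with calls again at an adjusted p of at most 0.05 in limma and against 22.2% higher and 20.6% lower of all genes in culture. Of 18 Fgf receptors and co-receptors tested, 5 were higher and 6 lower in myoblasts, with a median log2 fold change of 0.14. Syndecan 4 (Sdc4), a heparan sulfate carrier that marks satellite cells, fell from 4180, 2589 and 3148 RPM to 287, 236 and 197 RPM (log2 -3.77, limma adjusted p = 6.83e-06). Glypican 3 (Gpc3) fell by 3.29 and syndecan 3 (Sdc3) rose by 2.41 on the log2 scale. Cell surface carriers of heparan sulfate thus moved in both directions. Of 13 genes whose products make, edit or carry heparan sulfate, 4 were higher and 2 lower, with a median of 0.16. The sulfatases, which remove sulfate groups that Fgf binding needs, moved apart, Sulf2 rising by 3.68 and Sulf1 falling by 2.18. The sulfotransferase Hs6st1 rose by 2.39 and the glycosyltransferase Extl3 by 1.14.

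Among 12 Fgf family and Fgf binding protein genes tested, 5 were higher and 2 lower (median 0.68). Fgf21, a secreted hormone, went from 0, 2.29 and 0.681 RPM to 60.6, 129 and 230 RPM (log2 6.12, limma adjusted p = 5.72e-05). Fgf6, a ligand largely restricted to muscle, went from 0.336, 0.291 and 0.421 RPM to 5.57, 14.4 and 25.0 RPM (log2 3.36, limma adjusted p = 0.000695). Replicate 06 of the myoblasts was the highest for both, and for the summed myofiber genes, whose part in these values was not tested. Fgf13, which stays inside the cell, rose by 2.67, and Fgf5 by 2.06 from values of at most 0.0238 RPM in MuSCs.

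Of 12 genes of Hgf activation and Met partners, 6 were higher and 2 lower (median 0.79). The plasminogen activators Plat and Plau, proteases of a family that can cleave the Hgf precursor, fell by 2.84 each. Cbl, the ubiquitin ligase that takes Met off the surface, rose by 2.13 from 4.82, 5.23 and 4.65 RPM to 16.1, 34.6 and 27.3 RPM. Met itself is the fourth of this list by size.

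Of the 6 Sprouty and Spred genes tested, 3 were lower and none higher, and those are the members Spry1, Spry4 and Spred1 described above. Of 16 other regulators of receptor kinase and ERK signaling, most of them inhibitors, 3 were higher and 4 lower (median 0.066). Dusp4, a phosphatase of ERK in the nucleus, rose by 3.51 from 2.84, 4.23 and 2.72 RPM to 58.6, 57.0 and 30.9 RPM, and Lrig1, which lowers receptor kinases at the surface, fell by 3.29 from 94.0, 73.8 and 69.8 RPM to 8.41, 5.70 and 7.59 RPM. Dusp9 rose by 1.96 and Rasa1, a GTPase activator of RAS, by 1.88. The called inhibitors thus went in both directions. Of 23 adaptor and RAS-ERK genes, 6 were higher and 4 lower (median 0.059), led by Rps6ka1 (3.33), Gab1 (-2.54), Shc1 (2.12) and Braf (-1.75). Gab1 and Shc1 are both adaptors and changed in opposite directions.

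Transcripts known to be induced by ERK split evenly, with 7 of 18 higher and 7 lower in myoblasts (median -0.17). The immediate early gene Fos fell from 3944, 7348 and 6632 RPM to 18.2, 17.4 and 18.8 RPM (log2 -8.24, limma adjusted p = 2.73e-07), and Egr1 fell by 3.37. Fosl1 rose by 3.41 and Dusp4 as given above. The genes Etv4, Etv5 and Dusp6, often read as outputs of Fgf signaling, were picked after their values were seen. Etv4 rose by 3.21 and Etv5 by 0.82, whereas Dusp6 was at 146, 183 and 169 RPM in MuSCs and at 121, 165 and 136 RPM in myoblasts (log2 -0.24, limma adjusted p = 0.333).

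**Figure D4:**
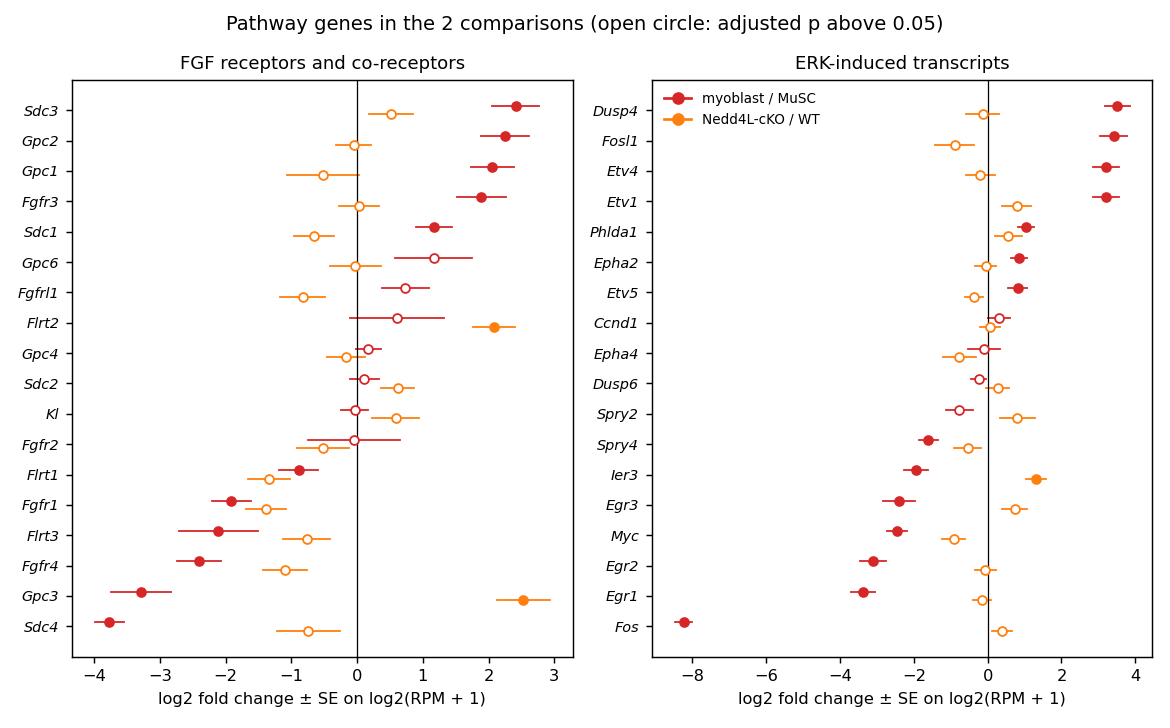
Log2 fold change with its SE on the horizontal axis for Fgf receptors and co-receptors on the left and ERK-induced transcripts on the right, in red for myoblasts against MuSCs and in orange for Nedd4L-cKO against WT, filled where the adjusted p was at most 0.05. In myoblasts 5 receptors and co-receptors are higher and 6 lower, and in Nedd4L-cKO only Gpc3, Flrt2 and Ier3 are filled, all to the right of 0.

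Between Nedd4L-cKO and WT MuSCs, 3 of the 110 distinct genes tested from these lists passed, all higher, against 0.523% higher and 0.261% lower of all tested genes. Gpc3 was at 12.6, 3.16 and 8.98 RPM in WT and at 42.9, 44.7 and 53.1 RPM in Nedd4L-cKO (log2 2.53, SE 0.40, limma adjusted p = 0.0184). Flrt2, a membrane protein of a family that binds Fgf receptors, was at 7.38, 11 and 8.41 RPM in WT and at 29.1, 56.0 and 40.4 RPM in Nedd4L-cKO (log2 2.08, SE 0.32, limma adjusted p = 0.0148). In both the groups were well apart, replicate 03 included, with a 3.16 to 12.6 RPM range for Gpc3 in WT. Ier3, an early response gene, was at 32.3, 36.8 and 28.9 RPM in WT and at 92.4, 63.0 and 94.5 RPM in Nedd4L-cKO (log2 1.31, SE 0.26, limma adjusted p = 0.0467), and it was not called when each library was scaled to its own total. In culture Gpc3 and Ier3 fell, and Flrt2 had a log2 difference of 0.61 that did not pass (limma adjusted p = 0.521). In the 6 other lists no gene was called in limma. At an unadjusted p under 0.05 they held 2 of 11 Fgf family and binding protein genes and 1 of 12 Hgf list genes. The same level was reached by 1 of 6 Sprouty and Spred genes and 2 of 15 other regulators. It was also reached by 2 of 22 adaptor or cascade genes and 0 of 12 heparan sulfate genes. In the lists that held a call, 3 of 18 receptors and co-receptors were higher and 4 lower at that level. Fgfr1 and Fgfr4 were among those lower. Of 18 ERK-induced transcripts, 1 was higher and 1 lower. Over the 110 genes an unadjusted p under 0.05 in limma was reached by 15.5%, and over all tested genes by 14.6%.

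In the genotype libraries the markers of other cell types also varied. The sum of 8 smooth muscle cell and pericyte genes was 2201 to 3347 RPM in Nedd4L-cKO and 1209 to 1989 RPM in WT, and that of 10 myofiber genes 554 to 667 RPM against 267 to 513 RPM, with none of either list at 0. The 12 fibroblast genes summed to 2569 to 4567 RPM in Nedd4L-cKO and to 2708 to 4823 RPM in WT. For 5 tenocyte genes the sum was 328 to 1122 RPM in Nedd4L-cKO and 181 to 1521 RPM in WT. The 8 genes of proliferating myoblasts summed to 567 to 1036 RPM in Nedd4L-cKO and to 225 to 1001 RPM in WT. All 8 had a positive log2 difference (median 1.11), and 1 was called higher, against 0.523% of all tested genes. Ccnb1 was at 63.4 to 91.6 RPM in Nedd4L-cKO and at 9.93 to 32.8 RPM in WT. Cdk1 was at 49.3 to 104 against 15.9 to 39.8 RPM. Mki67 overlapped, at 26.7 to 75.1 against 12.7 to 63.5 RPM. The part of these cells and genes in the values of Gpc3, Flrt2 and the members was not tested.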

How the data were processed

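RNA of 1000 sorted or cultured cells per library was amplified with SMART-Seq and sequenced. The authors quantified transcripts with Kallisto 0.46.1, summed them to genes with tximport and applied DESeq2. The deposited values are a signal, normalized counts, 1 table per comparison. Only 11.2% to 66.2% of low values per library fell on whole steps (tolerance 0.1), so reads were not recovered and depth is unknown. The tables' fold changes and p-values by the authors were not used.

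RPM were obtained with 1 scale per table, its mean library total. Genes reaching 10 normalized counts in 3 or more libraries were tested on log2(RPM + 1), which understates changes of low genes, with limma 3.58.1 (R 4.3.3; mean-variance trend, robust moderation, group as the term) and Benjamini-Hochberg adjustment over 15345 and 15304 genes. Each table was fitted alone. Ratios of RPM (0.1 added) were compared with exact two-sided permutation tests. The labels give MuSC and myoblast libraries shared numbers without saying that they share a mouse, so the fit had no block. P-values measure the spread between these libraries.

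All 10 members are named. Of the pathway lists, called genes without overlap were named, at most the 4 with the largest change per list and comparison. The members and lists were chosen with earlier results of these data known. Positions are from GENCODE M39 (GRCm39), promoters from RefSeq (GRCm38.p6). The test was checked on simulated data. The union exon length was added after the data were seen.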

Additional observations from a re-analysis of the deposited data

How the results depend on the processing

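The 6 calls among members in myoblasts held in each of 16 alternatives: pseudocounts of 0.1 and 5, no or a stricter filter, 4 other scalings, the replicate block, no trend or robust moderation, and the loss of any single library. With those libraries left out, Spry1 stayed between -4.31 and -4.10. Own-total scaling moved the median of all genes in culture by 0.10 (log2) and changed no call of a member. When a log2 change of 1 or more and 5 RPM or more on average were also required, the 6566 genes called in culture became 3872.

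For Nedd4L-cKO against WT, 2 members (Fgfr1 and Spry1) were called in place of 0 when genes needed 10 normalized counts in every library, and 2 at an adjusted p of at most 0.1. Leaving out a library gave 0 to 2 members, 2 of them without Nedd4L-cKO replicate 03, and 21 to 176 called genes, fewest without Nedd4L-cKO replicate 02. The 120 genes called became 213 with the stricter filter, 301 at an adjusted p of at most 0.1, 76 with the replicate block and 50 without trend or robust moderation. In the block fit no member was called. The numbers there name different mice, whose deviations correlated at 0.019, -0.023 and -0.18. In culture the block left 6 members called and 6078 genes in all, and deviations of same-numbered libraries correlated at -0.031, -0.0050 and 0.018. In both comparisons 1 of 6 libraries correlated best with its own number, so the numbers were not taken as pairs. Under the block or own totals Ier3 was no longer called (0 genes of its list).

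Signs reversed only near 0. Spred1 in Nedd4L-cKO was at -0.11 with own totals and -0.069 with own totals without mitochondrially encoded genes. With a library left out it ranged from -0.11 to 0.22, Spred2 from -0.26 to 0.098 and Hgf from -0.70 to 0.023. The log2 Spred1 to Spred2 ratio there ranged from -0.13 (without WT replicate 03) to 0.32, and was -0.057 without Nedd4L-cKO replicate 02. In culture Spred2 ranged from -0.31 to 0.44. Causes were not tested. With 3 libraries a group, exact tests could not go below p = 0.1, and the unknown depth leaves the precision of Hgf and Fgf2 open to counting error that was not measured.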
